A study of Homo sapiens with 12 samples.

Results

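The microRNA processing and silencing machinery is described here by 10 genes, TNRC6A, TNRC6B, TNRC6C, AGO1, AGO2, AGO3, AGO4, DICER1, DROSHA and DGCR8, out of 50868 gene identifiers counted by RNA-seq in 12 libraries. The genes were taken by symbol. TNRC6C was selected on its counts, which nearly vanished in the ZNF165 knockdown and in no other group, so its values are given as a description, with no test. The libraries fall into 4 groups of 3. MKN28 cells, whose genotype is given as a ZNF165 knockdown, carried a lentiviral construct against ZNF165, and their controls carried a control lentivirus (genotype WT). MKN45 cells with ZNF165 Overexpression carried a ZNF165 lentivirus, and their controls carried a control lentivirus (genotype WT). Every group was therefore transduced, and both lines are established human gastric cancer cells. MKN28 is known from cell line authentication to derive from another gastric line, so it is not an independent tumour model. For knockdown replicates 2 and 3 the description field reads ZNF166 and ZNF167, against the ZNF165 of their genotype label. Nothing in the labels ties replicates to separate cultures, so the p-values rest on the spread from library to library, possibly technical in part.

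MicroRNA genes are transcribed as long primary transcripts. In the nucleus the microprocessor, made of the RNase DROSHA and its RNA-binding partner DGCR8, cuts out a hairpin, which exportin-5 carries to the cytoplasm. There DICER1 trims the hairpin to a short duplex, and 1 strand is loaded into an Argonaute protein (AGO1 to AGO4), of which AGO2 can itself cut a fully matched target. The TNRC6 proteins, also called GW182 proteins, bind Argonaute and bring in the CCR4-NOT and PAN2-PAN3 deadenylases, after which the target messenger is shortened, decapped and degraded.

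Among the members, DICER1 and DGCR8 also carry annotated microRNAs inside their own genes. They are shown because counts assigned to those genes measure the host transcript and not the mature microRNA. Hairpins in the DGCR8 messenger are known substrates of the microprocessor. Capitals mark the seed, bases 2 to 8, the stretch that pairs with targets, and all sequences are RefSeq entries on GRCh38.p14.
hsa-miR-3618 (in DGCR8, chr22:20085797-20085818, plus strand): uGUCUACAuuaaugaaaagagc
hsa-miR-1306-5p (in DGCR8, chr22:20086072-20086093, plus strand): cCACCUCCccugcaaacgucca
hsa-miR-1306-3p (in DGCR8, chr22:20086112-20086129, plus strand): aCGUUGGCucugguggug
hsa-miR-3173-5p (in DICER1, chr14:95137961-95137982, minus strand): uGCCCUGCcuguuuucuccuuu
hsa-miR-3173-3p (in DICER1, chr14:95137923-95137944, minus strand): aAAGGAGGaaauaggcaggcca
The 5 seeds differ from each other, so these microRNAs belong to no shared seed group. TNRC6C and DGCR8 were the members with the lowest and the highest knockdown fold change, and a window of 250 bases before a RefSeq start of each is given for comparison. TNRC6C has 4 such windows listed, and the one nearest to the GENCODE start of the gene (77959240) is printed, which ends upstream of that start. The windows are shown with the letters CCAAT or ATTGG, the same motif on either strand, in capitals.
TNRC6C (chr17:77958453-77958702, plus strand): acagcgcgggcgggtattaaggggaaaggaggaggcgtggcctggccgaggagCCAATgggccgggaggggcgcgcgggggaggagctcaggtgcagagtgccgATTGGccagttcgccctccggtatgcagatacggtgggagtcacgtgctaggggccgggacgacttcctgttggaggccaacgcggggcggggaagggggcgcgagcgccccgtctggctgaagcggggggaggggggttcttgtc
DGCR8 (chr22:20079991-20080240, plus strand): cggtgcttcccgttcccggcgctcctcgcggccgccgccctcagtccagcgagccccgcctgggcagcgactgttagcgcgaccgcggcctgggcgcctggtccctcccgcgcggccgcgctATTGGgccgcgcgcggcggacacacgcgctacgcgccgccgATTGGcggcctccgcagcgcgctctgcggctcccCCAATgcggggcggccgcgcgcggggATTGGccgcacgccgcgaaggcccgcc
The TNRC6C window held 2 matches and 70.4% G and C, and the DGCR8 window held 4 matches and 80% G and C. Of 35116 promoter windows of the same length, 9.53% held at least 2 matches and 0.874% at least 4, and the median G and C content was 58%. Of the 9 members with such a window, 6 held a match. TNRC6B and DROSHA, both lower in the knockdown, held 5 and 3 matches, and TNRC6A and AGO1 held 1 each. AGO3, AGO4 and DICER1, lower as well, held 0. A match is a description of these letters, and no binding was measured.

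Library totals ranged from 12075813 to 19548445 counts, and a gene with a count of 0 could still have had up to 3 counts, or 0.193 to 0.343 CPM in knockdown, 0.124 to 0.130 CPM in MKN28 control, 0.147 to 0.169 CPM in overexpression and 0.168 to 0.221 CPM in MKN45 control libraries (CPM are counts scaled to a common library size, here TMM-scaled), a limit for counting error alone. ZNF165 averaged 3.74 ± 1.13 CPM in knockdown and 10.4 ± 2.31 CPM in MKN28 control libraries, and 104 ± 6.20 CPM in overexpression and 12.2 ± 4.76 CPM in MKN45 control libraries (SD, n = 3 each). All 7 epithelial markers averaged at least 1 CPM in every group, with a summed level of 14560 to 39435 CPM in knockdown and 7200 to 7756 CPM in MKN28 control libraries, and of 5031 to 7904 CPM in overexpression and 5429 to 9870 CPM in MKN45 control libraries. Of 6 fibroblast markers, 2 averaged at least 1 CPM in knockdown and 1 in MKN28 control libraries, with sums of 27.2 to 44.0 CPM and 89.0 to 122 CPM. In MKN45 1 averaged at least 1 CPM in either group, with sums of 21.9 to 26.4 CPM with overexpression and 17.3 to 18.7 CPM in controls. Of 6 haematopoietic markers, 1 averaged at least 1 CPM in knockdown and 0 in MKN28 control libraries, and 1 in either MKN45 group. Their sum was 2.19 to 3.53 CPM in knockdown and 0.341 to 0.585 CPM in MKN28 control libraries. In MKN45 it was 160 to 242 CPM with overexpression and 99.1 to 134 CPM in controls, and PTPRC and HBB were at 0 in both groups. The sum of 4 endothelial markers was 0.166 to 0.728 CPM in knockdown and 0.819 to 2.16 CPM in MKN28 control libraries. In MKN45 that sum was 0.729 to 1.05 CPM with overexpression and 0.0652 to 0.802 CPM in controls. The part of these markers in the members' results was not tested. Knockdown replicate 1 stood apart from the other knockdown libraries, with a chi-square per degree of freedom of 417 and 253 against them, where replicates 2 and 3 gave 60.1 against each other. The rank correlation between CPM and transcript length across genes was 0.0786, 0.0027 and -0.00353 in the knockdown libraries, against 0.324, 0.249 and 0.326 in MKN28 controls. Longer transcripts were thus relatively lower in knockdown libraries as a whole. With GC content the rank correlation was 0.0501, 0.323 and 0.317 in knockdown libraries, against -0.0614, 0.0794 and -0.108 in MKN28 controls. Genes with a count numbered 20560, 17620 and 17504 in knockdown libraries, against 22579, 21102 and 22397 in MKN28 controls. Values with the trend on length and GC content removed are given beside the members' results. In cells measured in bulk, fewer cells and less RNA per cell cannot be told apart.

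In the knockdown, 7 of the 9 members other than TNRC6C fell and none rose (quasi-likelihood test of edgeR, with p-values adjusted over all genes by Benjamini-Hochberg and a threshold of 0.05). Over all 14939 genes tested, 40.8% were called, 21.6% as lower and 19.2% as higher. The median log2 fold change of the 9 genes was -2.11, against -0.20 over all genes tested. In 8 of the 9 members other than TNRC6C, every knockdown library lay below every control library, and over all genes tested 30.3% had that order and 53.8% had groups that did not overlap in either direction. The exception was DGCR8.

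**Figure D1:**
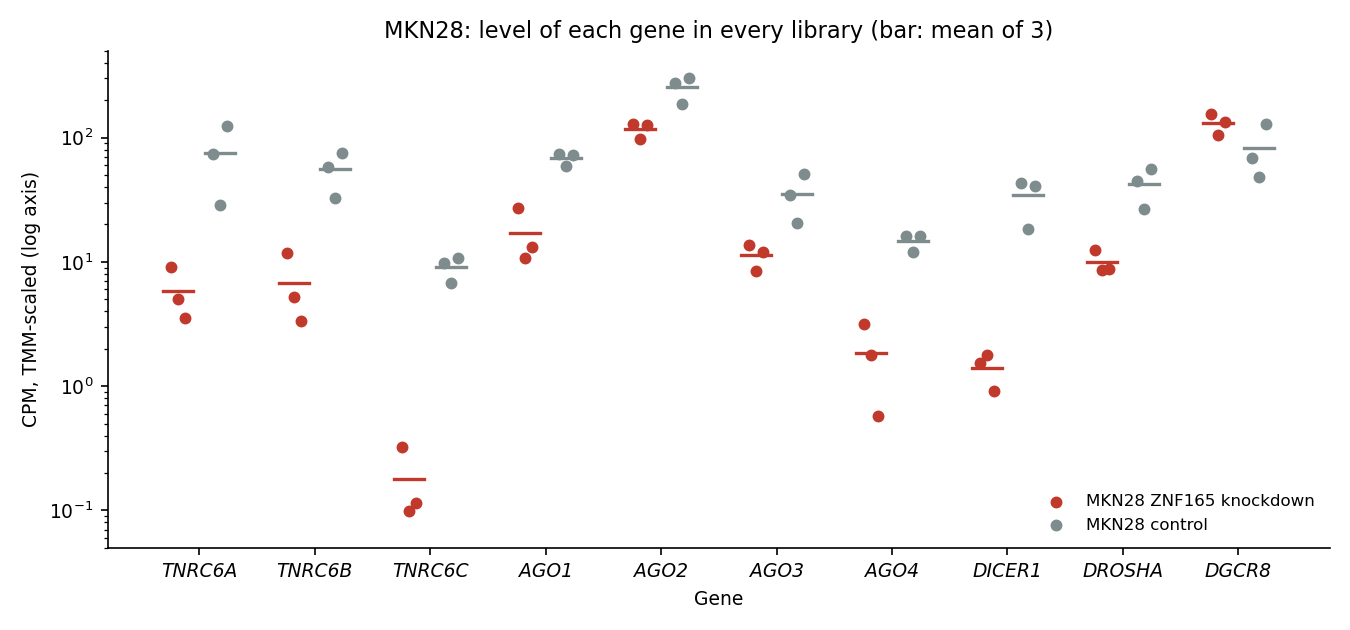
Level of each gene in the 3 MKN28 knockdown libraries (red) and the 3 MKN28 control libraries (grey), in TMM-scaled CPM on a log axis, with a bar at each mean. The groups separate for 9 genes and overlap for DGCR8, and TNRC6C lies at 0.0988 to 0.321 CPM in knockdown libraries.

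All 3 TNRC6 scaffolds had far lower levels in the knockdown, and the 2 that were tested passed. TNRC6C had 5, 1 and 1 counts in knockdown libraries, against 235, 158 and 247 counts in MKN28 controls. Its level was 0.178 ± 0.124 CPM in knockdown and 9.04 ± 2.09 CPM in control libraries (SD, n = 3 each). Summed over libraries, the knockdown level was 2.25% of the control level, with an exact 95% interval of 0.901% to 4.66% that covers counting error only. Knockdown replicates 2 and 3 lay under the level that a count of 0 allows. TNRC6A, the founding GW182 protein, had 9.06, 5.04 and 3.55 CPM in knockdown libraries, against 73.5, 28.5 and 123 CPM in MKN28 controls. It fell 12.7-fold (log2 fold change -3.67, SE 0.67, adjusted p = 0.00428). TNRC6B, a paralog that also recruits CCR4-NOT, had 11.8, 5.24 and 3.32 CPM in knockdown libraries, against 58.4, 32.8 and 75.0 CPM in MKN28 controls. It fell 8.10-fold (log2 fold change -3.02, SE 0.63, adjusted p = 0.0058). Within each of the 3 genes the highest knockdown library stayed below the lowest control library.

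Of the Argonautes, AGO1, AGO3 and AGO4 fell and AGO2 did not pass the test. AGO2, the only human Argonaute known for efficient cutting of targets, was the most abundant of the 4 by CPM per kilobase in each group. It had 128, 97.1 and 126 CPM in knockdown libraries, against 276, 187 and 301 CPM in MKN28 controls (log2 fold change -1.12, SE 0.43, adjusted p = 0.057). It passed on the lower side with library totals (-1.88, adjusted p = 0.0179), with upper-quartile factors (-1.19, adjusted p = 0.0489) and with the spread of all 12 libraries (-1.05, adjusted p = 0.0148). AGO1 had 27.2, 10.8 and 13.2 CPM in knockdown libraries, against 73.5, 58.6 and 72.3 CPM in MKN28 controls, and fell 3.99-fold (adjusted p = 0.0125). AGO3 had 13.7, 8.40 and 11.9 CPM in knockdown libraries, against 34.8, 20.6 and 50.9 CPM in MKN28 controls, and fell 3.12-fold (adjusted p = 0.0308). AGO4 had 3.15, 1.78 and 0.572 CPM in knockdown libraries, against 16.3, 12 and 16.2 CPM in MKN28 controls, and fell 7.92-fold (adjusted p = 0.00729). Replicate 1 was the highest knockdown library for all 4 Argonautes. AGO4, AGO1 and AGO3 lie in tandem on chromosome 1 (GRCh38, 35808172 to 36072500, plus strand), with 11917 bases between AGO4 and AGO1 and 189 bases between AGO1 and AGO3. With the strand and overlap settings of the counting not given in the sources used here, reads running from AGO1 into AGO3 cannot be assigned with certainty.

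DICER1, which releases the mature duplex, fell most among the tested members. It had 24, 18 and 8 counts in knockdown libraries, against 1050, 433 and 944 counts in MKN28 controls. In CPM these were 1.54, 1.78 and 0.916 in knockdown libraries, against 43.4, 18.4 and 40.9 in controls. The fall was 24-fold (log2 fold change -4.58, SE 0.63, adjusted p = 0.00367), and the 3 knockdown libraries were close together while control replicate 2 was the lowest control.

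The 2 microprocessor subunits differed. DROSHA, the RNase, had 12.4, 8.60 and 8.70 CPM in knockdown libraries, against 45.1, 26.5 and 56.4 CPM in MKN28 controls, and fell 4.30-fold (log2 fold change -2.11, SE 0.51, adjusted p = 0.0103). DGCR8, its RNA-binding partner, had 156, 105 and 134 CPM in knockdown libraries, against 68.8, 48.4 and 129 CPM in MKN28 controls. The groups overlapped, since control replicate 3 was above knockdown replicate 2, and the difference did not pass the test (log2 fold change 0.68, SE 0.49, adjusted p = 0.278). With library totals in place of TMM factors the DGCR8 value was -0.05.

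Transcript length moved with these differences. The 9 members other than DGCR8 have longest annotated transcripts of 5305 to 19687 bases and all belong to the longest of 4 classes, near-equal in size, of tested genes by transcript length (5031 bases and more). In that class the median log2 fold change was -1.62, with 47.6% of genes called lower and 4.28% called higher. DGCR8, at 4695 bases, belongs to the class below (3256 to 5030 bases), where the median was -0.56 and 23.9% were called lower. All members but AGO2 and DGCR8 lay at or below the median of the longest class, with AGO3 at -1.64 beside that median of -1.62.

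**Figure D2:**
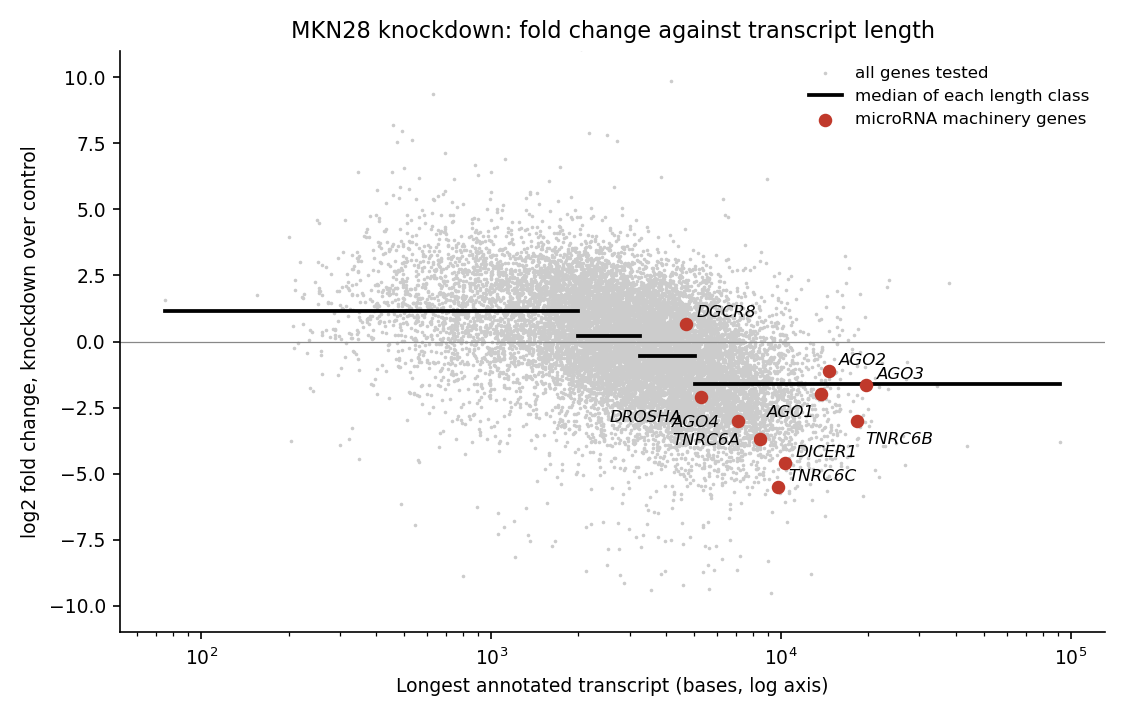
Log2 fold change of knockdown over control in MKN28 against the longest annotated transcript in bases (log axis) for all genes tested (grey), with the machinery genes in red and the median of each of 4 length classes as a black line. The class medians step down to -1.62 for the longest transcripts, and TNRC6C, DICER1, TNRC6A, TNRC6B and AGO4 lie more than 1 log2 unit below that.

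With the smooth trend on transcript length and GC content removed from each library, 2 members were called lower and 2 higher, against 17.7% lower and 23.9% higher over all genes tested. TNRC6A stayed lower at a log2 fold change of -1.71 (adjusted p = 0.00971) and DICER1 at -1.63 (adjusted p = 0.0167). TNRC6C was at -4.17, given with no test. TNRC6B at -0.56 (adjusted p = 0.15), AGO4 at -1.09 (adjusted p = 0.0596) and DROSHA at -0.59 (adjusted p = 0.159) no longer passed. AGO1 was at 0.06 (adjusted p = 0.872). AGO2 at 1.09 (adjusted p = 0.0125) and AGO3 at 1.70 (adjusted p = 0.00946) were called higher, the reverse of their order in CPM. Few genes fix the trend at such lengths, as 23 of the genes tested had a transcript as long as that of AGO3 and 113 as long as that of AGO2. DGCR8 was at 0.91 (adjusted p = 0.105). GC content of the longest transcript was lowest in AGO3 (38.9%) and DICER1 (39.2%) and highest in DGCR8 (53.6%). What part of the falls goes with transcript length, with GC content or with the knockdown was not tested.

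**Figure D3:**
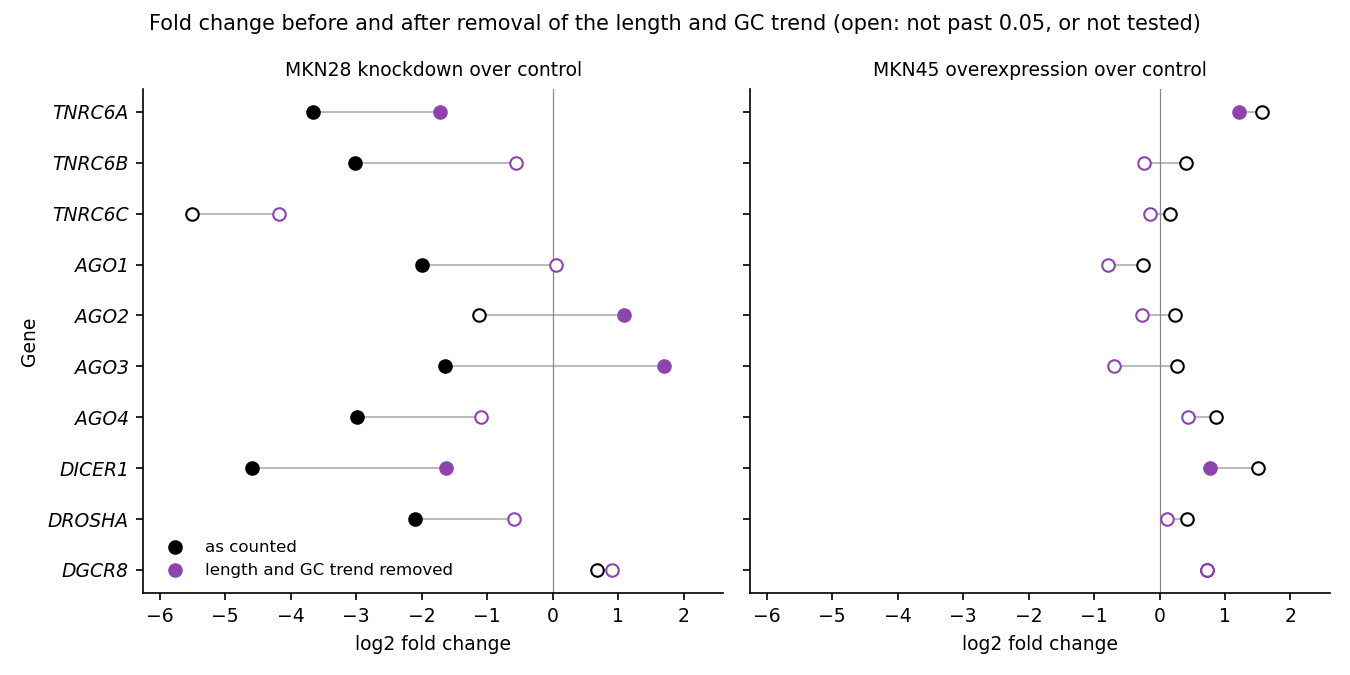
Log2 fold change of each gene as counted (black) and without the length and GC trend (purple), for knockdown over control in MKN28 (left) and overexpression over control in MKN45 (right), where filled points passed an adjusted p of 0.05 and open points did not or, for TNRC6C, were not tested. In the knockdown panel TNRC6A and DICER1 stay filled on the lower side, and AGO2 and AGO3 move to the higher side.

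Leaving out 1 library at a time, TNRC6A, TNRC6B, AGO4 and DICER1 passed in all 6 fits. AGO1 missed the threshold without knockdown replicate 3 (adjusted p = 0.0533) or control replicate 1 (adjusted p = 0.0603), and DROSHA missed it without control replicate 1 (adjusted p = 0.0529) or control replicate 3 (adjusted p = 0.0543). AGO3 passed in 2 of 6 such fits, with adjusted p-values of 0.00577 to 0.147. Without knockdown replicate 1, the library that stood apart, AGO2 passed too (log2 fold change -1.06, adjusted p = 0.0235) and 8 members were called lower. That fit tested 15758 genes and called more of them than any other that left out 1 library, with 43.0% of the calls higher. Its 8 members can therefore not be set against the share of all genes called lower in the main fit. With knockdown replicate 1 alone standing for the knockdown, which leaves out both libraries whose descriptions name other genes, 4 members were called lower, TNRC6A, TNRC6B, AGO4 and DICER1, and the lone library is there assumed to vary like the controls.

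The partners of the microprocessor and of nuclear export were called in both directions in the knockdown, at shares near those over all genes tested. Of 15 tested genes, 4 fell and 3 rose, where 21.6% of all genes fell and 19.2% rose, with a median log2 fold change of 0.11. DDX17, an RNA helicase that helps the microprocessor on some hairpins, fell 23.6-fold to 11 ± 8.0 CPM in knockdown libraries, against 262 ± 75.9 CPM in MKN28 controls (SD, n = 3 each, adjusted p = 0.00367). NCBP1 and NCBP2, the nuclear cap-binding subunits, fell 11.9-fold (adjusted p = 0.005) and 4.0-fold (adjusted p = 0.00778). XPO5, the exporter of hairpins, had 75.7, 36.9 and 42.5 CPM in knockdown libraries, against 144, 119 and 148 CPM in MKN28 controls, and fell 2.65-fold (adjusted p = 0.0325). SRRT, which links the cap-binding complex to primary microRNA processing, rose 3.12-fold (adjusted p = 0.0182), and the RNA-binding protein KHSRP rose 2.76-fold (adjusted p = 0.0267). With the length and GC trend removed, DDX17 (-2.77) and NCBP1 (-1.67) stayed lower, XPO5 was at -0.47 (adjusted p = 0.141) and NCBP2 at 0.03 (adjusted p = 0.96). Both named rises lost their calls there, with SRRT at 0.82 (adjusted p = 0.0548) and KHSRP at 0.68 (adjusted p = 0.0679). The list as a whole then gave 2 lower and 5 higher, beside 17.7% and 23.9% of all genes, with a median log2 fold change of 0.63.

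Among partners of DICER1 and of loading, 2 of 13 tested genes rose and 3 fell, again near the 19.2% and 21.6% of all genes, with a median log2 fold change of 0.01. TARBP2, the double-stranded RNA-binding partner of DICER1, had 38.6, 228 and 123 CPM in knockdown libraries, against 11.1, 14.2 and 12.4 CPM in MKN28 controls. It rose 10.3-fold (log2 fold change 3.36, SE 0.65, adjusted p = 0.00489), the opposite of DICER1, and its longest transcript has 1867 bases. With the length and GC trend removed the rise was 1.75 on the log2 scale (adjusted p = 0.00353). PRKRA, the related partner also called PACT, had 48.6, 48.6 and 45.4 CPM in knockdown libraries, against 28.3, 27.7 and 30.5 CPM in MKN28 controls, and missed the threshold (log2 fold change 0.72, adjusted p = 0.194), while it was called higher after removal of the length and GC trend (1.86, adjusted p = 0.00859). HSP90AA1, a chaperone used in loading Argonaute, fell 9.94-fold (adjusted p = 0.0114). ADAR, an RNA-editing enzyme, fell 2.76-fold (adjusted p = 0.0286). TSNAX, a subunit of the C3PO nuclease, fell 5.37-fold (adjusted p = 0.0323), and CLP1, an RNA kinase, rose 3.33-fold (adjusted p = 0.0331). After removal of the trend HSP90AA1 (-2.56) and CLP1 (1.40) kept their calls, and ADAR at -0.22 (adjusted p = 0.523) and TSNAX at -0.24 (adjusted p = 0.695) lost theirs.

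Enzymes that tail or degrade microRNAs and their precursors fell where they were called. Of 12 tested genes of 15 listed, 4 fell and none rose, where 21.6% of all genes fell and 19.2% rose. The median log2 fold change of the list was -1.25. TUT4 and TUT7, the uridylyl transferases that tail precursors such as that of let-7, fell 13.3-fold (adjusted p = 0.00442) and 21.3-fold (adjusted p = 0.00601). TENT2, a cytoplasmic poly(A) polymerase, fell 6.89-fold (adjusted p = 0.0103), and PNPT1, a mitochondrial exonuclease, fell 5.47-fold (adjusted p = 0.0256). All 4 stayed lower with the length and GC trend removed, at log2 fold changes of -2.65, -1.57, -1.36 and -0.96 for TUT7, TUT4, TENT2 and PNPT1.

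The deadenylases that TNRC6 proteins recruit gave 5 lower and 1 higher among 19 tested genes, with a median log2 fold change of -0.37. The share called lower was near the 21.6% of all genes, and 19.2% of all genes were called higher. CNOT1, the scaffold of CCR4-NOT, had 38.0, 25.5 and 21.2 CPM in knockdown libraries, against 265, 150.5 and 321 CPM in MKN28 controls, and fell 8.69-fold (adjusted p = 0.0037). PAN3 and PAN2, the adaptor and the nuclease of the other complex, fell 9.84-fold (adjusted p = 0.00439) and 6.65-fold (adjusted p = 0.00535). The nuclease CNOT6 fell 9.37-fold (adjusted p = 0.00566), and its relative CNOT6L, named after its values were seen, was the fifth gene called lower (log2 fold change -2.72, adjusted p = 0.0277). BTG1, an antiproliferative protein that binds CCR4-NOT nucleases, rose 3.33-fold (adjusted p = 0.0172). With the trend removed CNOT1 (-1.02), PAN3 (-1.08), PAN2 (-2.00) and CNOT6 (-0.98) stayed lower, and BTG1 stayed higher at 3.75 (adjusted p = 0.00124). The list then gave 6 lower and 4 higher, beside 17.7% and 23.9% of all genes.

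Downstream of deadenylation, 8 of 24 tested decapping, repression and P-body genes fell and 3 rose, beside 21.6% and 19.2% of all genes. Their median log2 fold change was -0.50. XRN1, the exonuclease that degrades decapped messengers, fell 16.1-fold (adjusted p = 0.00463), and FXR1 and FMR1, relatives in a family of RNA-binding proteins, fell 12.2-fold (adjusted p = 0.00372) and 3.93-fold (adjusted p = 0.0185). LIMD1, which links Argonaute to the cap-binding protein, fell 4.85-fold (adjusted p = 0.00984), whereas its relative AJUBA rose 3.93-fold (adjusted p = 0.0112). FXR2 and the cap-binding repressor EIF4E2 rose 2.83-fold (adjusted p = 0.0328) and 2.74-fold (adjusted p = 0.0209). DDX6, the P-body helicase that binds CNOT1, had 113, 21.0 and 17.1 CPM in knockdown libraries, against 187, 91.9 and 251 CPM in MKN28 controls. Those groups overlapped, with replicate 1 above control replicate 2, and DDX6 missed the threshold (log2 fold change -1.81, adjusted p = 0.073). With the length and GC trend removed, 2 genes of this list were called lower and 4 higher, beside 17.7% and 23.9% of all genes. FMR1 was there at 0.35 and DDX6 at 0.19. LIMD1 at -0.54 (adjusted p = 0.274) and FXR2 at 0.64 (adjusted p = 0.0877) lost their calls, and XRN1 (-1.33), FXR1 (-0.89), AJUBA (2.15) and EIF4E2 (2.32) kept theirs.

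Of 11 genes of the germline PIWI pathway, which guides a separate class of small RNAs, 3 were tested and 1 was called, PLD6, which rose 2.51-fold (adjusted p = 0.0467).

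Transcripts that host microRNAs were measured as a further readout of the pathway's input. Of 20 listed, 12 were tested, 3 rose and 3 fell, beside 19.2% and 21.6% of all genes. MIR22HG, host of miR-22, had 66.9, 53.1 and 55.5 CPM in knockdown libraries, against 3.23, 3.94 and 15.7 CPM in MKN28 controls, and rose 7.67-fold (adjusted p = 0.00821). MIRLET7BHG, host of let-7a and let-7b copies, rose 6.16-fold (adjusted p = 0.0159). MCM7, a DNA replication helicase subunit whose gene holds miR-93, miR-106b and miR-25, rose 4.01-fold (adjusted p = 0.0122). MIR205HG had no count in any knockdown library, against 29, 30 and 22 counts in MKN28 controls, which makes it at least 13.1-fold lower when 3 counts are allowed over the knockdown group. MIR23AHG fell 4.4-fold (adjusted p = 0.0154). MIR100HG had 4, 0 and 0 counts in knockdown libraries and 74 counts over the MKN28 controls, too few for a fold change to be quoted. After removal of the length and GC trend MIR22HG (2.92), MIRLET7BHG (2.18) and MCM7 (1.25) kept their calls, and MIR23AHG at -1.06 (adjusted p = 0.0911) and MIR100HG (adjusted p = 0.0819) lost theirs. For 6 hosts called in the knockdown or in the overexpression, 1 or 2 mature forms are given to show seeds that hosts share or do not share, and the others are not printed.
hsa-miR-22-3p (in MIR22HG, chr17:1713914-1713935, minus strand): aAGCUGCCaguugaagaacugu
hsa-let-7a-5p (in MIRLET7BHG, chr22:46112752-46112773, plus strand): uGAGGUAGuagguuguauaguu
hsa-let-7b-5p (in MIRLET7BHG, chr22:46113691-46113712, plus strand): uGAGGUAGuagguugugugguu
hsa-miR-93-5p (in MCM7, chr7:100093815-100093837, minus strand): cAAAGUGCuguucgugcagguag
hsa-miR-106b-5p (in MCM7, chr7:100094043-100094063, minus strand): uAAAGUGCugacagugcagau
hsa-miR-17-5p (in MIR17HG, chr13:91350618-91350640, plus strand): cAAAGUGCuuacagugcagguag
hsa-miR-20a-5p (in MIR17HG, chr13:91351072-91351094, plus strand): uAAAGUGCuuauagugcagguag
hsa-miR-205-5p (in MIR205HG, chr1:209432166-209432187, plus strand): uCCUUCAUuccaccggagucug
hsa-miR-34a-5p (in MIR34AHG, chr1:9151735-9151756, minus strand): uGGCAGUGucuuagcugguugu
The let-7 pair shares the seed GAGGUAG, and miR-93, miR-106b, miR-17 and miR-20a share AAAGUGC although they come from MCM7 on chromosome 7 and MIR17HG on chromosome 13. Mature microRNAs were not measured by these counts.

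Transcripts that are textbook targets of microRNAs gave 7 lower and 2 higher among 20 tested of 25 listed, beside 21.6% and 19.2% of all genes. Their median log2 fold change was -0.96. The receptor tyrosine kinase MET had 8.09, 2.47 and 1.37 CPM in knockdown libraries, against 76.3, 53.0 and 67.0 CPM in MKN28 controls, and fell 16.2-fold (adjusted p = 0.00394). The cell cycle kinase CDK6 fell 9.55-fold (adjusted p = 0.0037) and the receptor NOTCH1 fell 8.87-fold (adjusted p = 0.00367). CDC25A, a cell cycle phosphatase and let-7 target, rose 3.12-fold (adjusted p = 0.0311), and HMGA1, a chromatin protein named after its values were seen, was the other gene called higher (log2 fold change 1.65, adjusted p = 0.0436). With the length and GC trend removed the list gave 4 lower and 3 higher, beside 17.7% and 23.9% of all genes. CDK6 was there at -0.11 (adjusted p = 0.846), and MET (-2.10) and NOTCH1 (-2.51) stayed lower.

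Over the 12 libraries, the genes whose log2 CPM followed TNRC6C most closely among 17266 genes were LARP4B (Pearson r = 0.993), ZNF420 (0.992), HUWE1 (0.992), DDX17 (0.990) and TRERF1 (0.990). These values describe likeness and rest mainly on the contrast between the 3 knockdown libraries and the other 9 libraries. ZNF420 had 3, 0 and 0 counts in knockdown libraries, against 115, 76 and 177 counts in MKN28 controls. The ubiquitin ligase HUWE1 had 842, 325 and 284 counts in knockdown libraries, against 10852, 8030 and 10810 counts in MKN28 controls. Among the members, r with TNRC6C was 0.937 for DICER1, 0.936 for AGO4, 0.888 for TNRC6B, 0.847 for DROSHA, 0.846 for AGO1, 0.841 for TNRC6A, 0.597 for AGO3, 0.393 for AGO2 and -0.659 for DGCR8. By rank among all genes compared, DICER1 was 510, AGO4 523, TNRC6B 1482, DROSHA 2295, AGO1 2307 and TNRC6A 2379. AGO3 was 5702, AGO2 8092 and DGCR8 13351, so many other genes followed TNRC6C more closely.

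In MKN45 cells overexpressing ZNF165, none of the 9 members other than TNRC6C passed the test in either direction. Over all 15833 genes tested, 1.13% were called, 0.935% as higher and 0.196% as lower. The median log2 fold change of the 9 members was 0.42, against -0.00 over all genes, and 8 of the 9 values were above 0. By DESeq2 3 members were called higher and none lower, where it called 11.6% of all genes, 6.56% as higher.

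**Figure D4:**
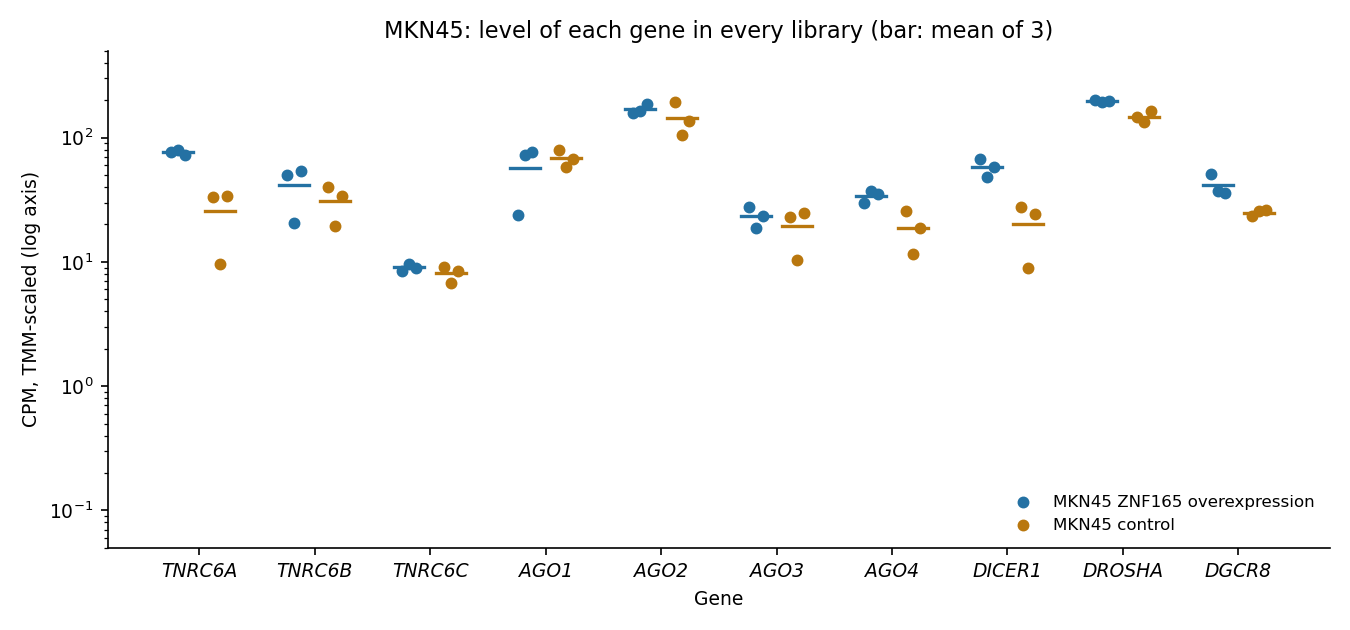
Level of each gene in the 3 MKN45 overexpression libraries (blue) and the 3 MKN45 control libraries (ochre), in TMM-scaled CPM on a log axis, with a bar at each mean. TNRC6A, AGO4, DICER1, DROSHA and DGCR8 separate between groups, and TNRC6C lies at 8.43 to 9.64 CPM with overexpression, within reach of the controls.

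The scaffold TNRC6C had 8.43, 9.64 and 8.96 CPM in overexpression libraries, against 9.06, 6.79 and 8.41 CPM in MKN45 controls, a log2 fold change of 0.16. Its groups overlapped. TNRC6A had 76.1, 80.1 and 72.2 CPM in overexpression libraries, against 33.3, 9.59 and 33.9 CPM in MKN45 controls. The groups did not overlap, the order found in 38.1% of all genes tested in either direction, and the log2 fold change of 1.57 (SE 0.42) had an adjusted p of 0.0771. TNRC6B had 49.9, 20.7 and 53.5 CPM in overexpression libraries, against 40.1, 19.4 and 33.9 CPM in MKN45 controls, with replicate 2 low in both groups (log2 fold change 0.41, adjusted p = 0.52).

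DICER1 had 67.3, 48.3 and 57.7 CPM in overexpression libraries, against 27.8, 8.85 and 24.1 CPM in MKN45 controls (log2 fold change 1.51, SE 0.39, adjusted p = 0.0731). MKN45 control replicate 2 was the lowest library for DICER1 and for TNRC6A. Without it, TNRC6A passed at a smaller log2 fold change of 1.18 (adjusted p = 0.00838) and DICER1 at 1.15 (adjusted p = 0.0168). Both also passed once the trend on length and GC was taken out (1.21, adjusted p = 0.0439, and 0.77, adjusted p = 0.0382, where 3.90% of all genes were called higher), with no filter on low counts (adjusted p = 0.036 and 0.0351) and by DESeq2 (adjusted p = 0.00511 and 0.00447). The rank correlation between CPM and transcript length was 0.340 to 0.348 in overexpression libraries, against 0.301, 0.176 and 0.258 in MKN45 controls, with replicate 2 the lowest of these.

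Among the Argonautes, AGO4 had 29.9, 36.9 and 35.4 CPM in overexpression libraries, against 25.6, 11.7 and 18.7 CPM in MKN45 controls (log2 fold change 0.87, adjusted p = 0.121), without overlap. AGO1 had 23.7, 72.7 and 76.0 CPM in overexpression libraries, against 79.1, 57.6 and 67.9 CPM in MKN45 controls, with overexpression replicate 1 far below the other libraries (log2 fold change -0.25, adjusted p = 0.706). AGO2 and AGO3 overlapped between groups, at log2 fold changes of 0.23 (adjusted p = 0.571) and 0.26 (adjusted p = 0.641). Of the microprocessor, DROSHA had 201, 195 and 196 CPM in overexpression libraries, against 147, 133 and 163 CPM in MKN45 controls (log2 fold change 0.42, adjusted p = 0.197). DGCR8 had 51.4, 37.2 and 35.7 CPM in overexpression libraries, against 23.4, 25.4 and 26.0 CPM in MKN45 controls (log2 fold change 0.73, adjusted p = 0.103, and 0.0486 by DESeq2). Both microprocessor genes separated between groups without passing the main test.

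Few partner genes passed in the overexpression, and all of those rose, where 0.935% of all genes were called higher and 0.196% lower. Of 15 microprocessor and export partners 2 rose, among them the helicase DDX5 with 4.24-fold (adjusted p = 0.0177). Of 19 deadenylase genes BTG2, a relative of BTG1, rose 3.56-fold (adjusted p = 0.0446). Of 11 tested hosts, 3 rose: MIR22HG to 6.89 ± 2.06 CPM with overexpression, against 0.973 ± 0.335 CPM in MKN45 controls (6.96-fold, adjusted p = 0.0207), MIR34AHG 3.28-fold (adjusted p = 0.0363), and MIR17HG, with 103 counts summed over overexpression libraries and 12 over MKN45 controls (log2 fold change 2.80, adjusted p = 0.0409). No gene of the dicing, tailing, decapping, PIWI or target lists was called. The 5 calls named here did not hold in every fit: each missed the threshold without any 1 of the 3 overexpression libraries (adjusted p up to 0.184) or without MKN45 control replicate 3, and BTG2 also without control replicate 1. MIR22HG was the host called higher in both arms.

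The knockdown effect minus the overexpression effect was tested in a fit of all 12 libraries, in which the arms share no library. It differed for 8 of the 9 members other than TNRC6C, all on the lower side, where 42.9% of 17266 genes were called, 23.0% on the lower and 19.9% on the higher side. The difference was -6.01 for DICER1 (adjusted p = 0.000299), -5.14 for TNRC6A (adjusted p = 0.000488), -3.78 for AGO4 (adjusted p = 0.000922), -3.35 for TNRC6B (adjusted p = 0.00254) and -2.44 for DROSHA (adjusted p = 0.00119), each on the log2 scale. It was -1.81 for AGO3 (adjusted p = 0.0247), -1.68 for AGO1 (adjusted p = 0.0433) and -1.27 for AGO2 (adjusted p = 0.0361). With a replicate block AGO1 missed the threshold (-1.65, adjusted p = 0.0601) and the other 7 passed. DGCR8 had 0.04 (SE 0.51, adjusted p = 0.985), with log2 fold changes of 0.68 in the knockdown and 0.73 in the overexpression. TNRC6C had -5.58, given with no test. Once the length and GC trend was removed, DICER1 (-2.65), TNRC6A (-3.05) and AGO4 (-1.66) kept their sign and passed, and AGO2 (1.24) and AGO3 (2.17) passed with the opposite sign. Over all genes tested, that setting called 17.6% on the lower and 23.0% on the higher side. Leaving out 1 library at a time, AGO1 passed in 2 of 12 fits, AGO2 in 3 and AGO3 in 8, and the other 5 members passed in all 12.

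The controls of MKN45 and MKN28 were compared to see how far the machinery differed without a change of ZNF165. MKN45 controls were lower than MKN28 controls for 5 of the 9 members other than TNRC6C and higher for 1, where 41.8% of 16088 genes were called, 20.4% lower and 21.4% higher. Groups did not overlap for 6 members, TNRC6A, TNRC6B, AGO2, AGO3, DROSHA and DGCR8, and for 52.3% of all genes tested. With the length and GC trend removed 6 members were lower and 1 higher, against 30.8% of all genes lower and 23.3% higher. The microprocessor subunits went opposite ways. DROSHA averaged 148 ± 9.49 CPM in MKN45 and 54.2 ± 18.4 CPM in MKN28 (SD, n = 3 each, 2.73-fold higher, adjusted p = 0.00448). DGCR8 averaged 25.1 ± 1.96 CPM in MKN45 and 104 ± 51.6 CPM in MKN28, 4.15-fold lower (adjusted p = 0.00107). Both calls held in all 6 fits that left out 1 library.

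TNRC6A was 3.75-fold lower in MKN45 (adjusted p = 0.0143), AGO2 2.25-fold (adjusted p = 0.0131), AGO3 2.34-fold (adjusted p = 0.0343) and TNRC6B 2.27-fold (adjusted p = 0.0274). These calls were less firm, as AGO3 passed in 1, TNRC6B in 2, AGO2 in 4 and TNRC6A in 5 of the 6 fits that left out 1 library. DICER1 averaged 20.1 ± 9.49 CPM in MKN45 and 43.5 ± 17.2 CPM in MKN28 and missed the threshold (log2 fold change -1.11, adjusted p = 0.0677). A fit that pairs the control libraries of the lines by replicate number gave a log2 fold change of -1.16 (adjusted p = 0.00189). No label supports that pairing. DICER1 passed in 4 of 13 alternative fits, among them the pairing and removal of the length and GC trend (-0.74, adjusted p = 0.0164). The others were no filter on low counts and leaving out MKN28 control replicate 2. AGO1 and AGO4 gave -0.34 (adjusted p = 0.378) and -0.02 (adjusted p = 0.969). TNRC6C averaged 8.10 ± 0.876 CPM in MKN45 and 11.5 ± 2.50 CPM in MKN28, a log2 fold change of -0.50. Of the partner lists, the tailing and decay list had 4 of 12 genes lower and none higher in MKN45, and the deadenylases 4 of 19 higher and 3 lower. Over all genes tested, 20.4% were lower and 21.4% higher.

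Per kilobase of the longest transcript, the members spanned a wide range of levels within each group. In knockdown libraries DGCR8 was highest at 28.1 ± 5.46 CPM per kb, followed by AGO2 at 8.02 ± 1.18, and TNRC6C was lowest at 0.0183 ± 0.0127 (SD, n = 3). From DROSHA down to DICER1 each gene's range overlapped that of the next, between 1.87 ± 0.408 and 0.137 ± 0.0431 CPM per kb. In MKN28 controls DGCR8 at 17.5 ± 8.91 and AGO2 at 17.5 ± 4.10 CPM per kb could not be ordered, and TNRC6C was lowest at 0.928 ± 0.214, overlapping AGO3. In overexpression libraries DROSHA was highest at 37.2 ± 0.592 CPM per kb, above AGO2 at 11.6 ± 1.09 without overlap. In MKN45 controls DROSHA was again highest at 27.8 ± 2.80 CPM per kb, above AGO2 at 9.88 ± 3.03, and TNRC6C lowest at 0.830 ± 0.120, overlapping AGO3. The mean level of DGCR8 was thus above that of DROSHA in both MKN28 groups and below it in both MKN45 groups. Levels are scaled within each line's pair of groups, and transcripts shorter than the longest would raise a gene's value.

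**Figure D5:**
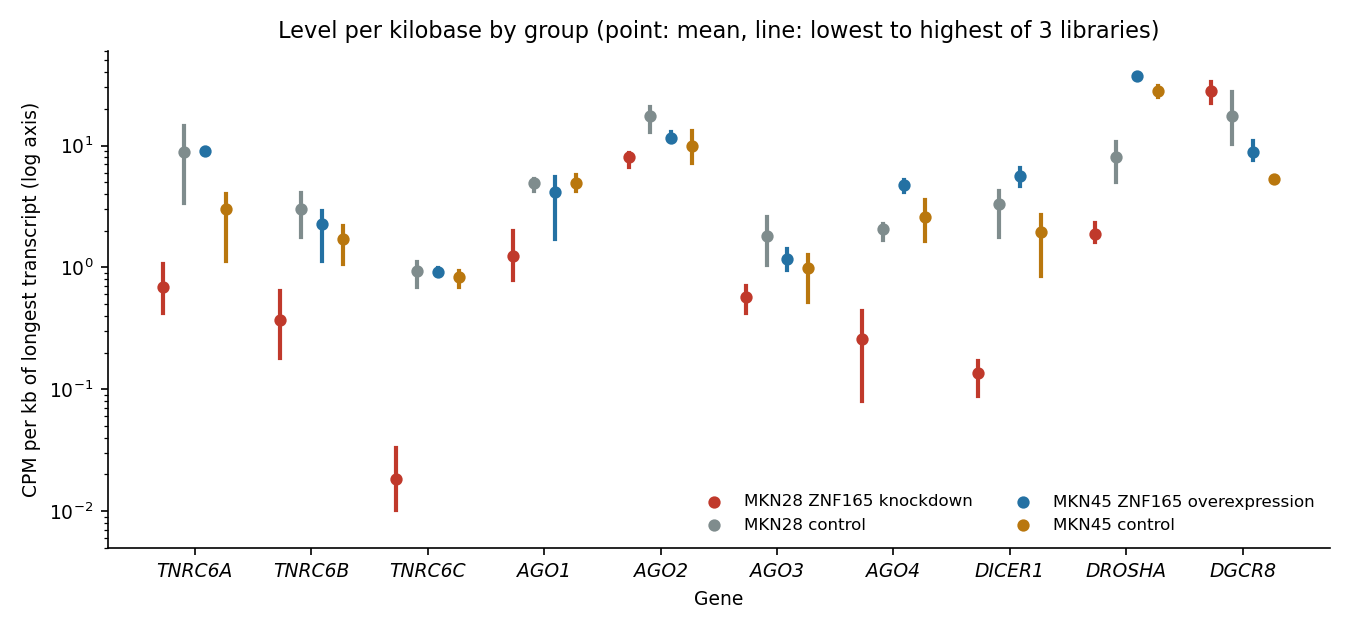
Level of each gene in CPM per kilobase of the longest annotated transcript (log axis) in knockdown (red), MKN28 control (grey), overexpression (blue) and MKN45 control libraries (ochre), as the mean with a line from the lowest to the highest of 3 libraries. Mean knockdown levels lie below those of the other groups for all genes but DGCR8, and DROSHA is highest in both MKN45 groups, at 37.2 and 27.8 CPM per kb.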

How the data were processed

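RNA-seq was measured in 12 libraries, 3 in each of 4 groups. The authors deposited whole-number counts per Ensembl gene for 50868 identifiers, judged from the values and the column headers; HISAT2 and StringTie are named in the submitters' processing notes without versions. No source used here gives the genome build, the counting rule or the strand setting. Of the identifiers, 20369 had no count, 49659 had a symbol and 50076 matched GENCODE 29, which gave transcript lengths and GC content. No column was left unused (0).

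Counts were tested with edgeR 4.0.16 (quasi-likelihood test, TMM scaling, filterByExpr with a minimum count of 10 and total of 15, Benjamini-Hochberg threshold 0.05) in R 4.3.3, each line on its own, the controls of both lines, and all 12 libraries for the difference. Alternatives were DESeq2 1.42.0, other scalings, no filter, spread from all 12 libraries, leaving out each library, the replicate number as a block, and offsets from a smooth trend on length and GC content (mgcv 1.9.3). CPM are TMM-scaled within each line. The scripts were tested on simulated data.

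Same-numbered libraries correlated in their deviations from the group means at 0.264, 0.507 and 0.281 between the lines' controls. MKN45 control replicate 1 correlated as closely with MKN28 control replicate 3 (0.275). The numbers were taken as pairs there in an alternative fit, from the data alone and with no label behind it. Members and gene lists were chosen with earlier results of these data known. All members were named. Of each list, up to 4 rising and 4 falling genes with the largest change and groups that did not overlap were named, plus XPO5, TARBP2, PRKRA, DDX6, CNOT1 and PAN3 and the 5 genes most like TNRC6C. Some genes that the rule names are counted in the lists but not reported here.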

Additional observations from a re-analysis of the deposited data

Results flagged for a closer look

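Among the genes named here, 45 had a knockdown effect in MKN28 that differed from the overexpression effect in MKN45. The test was of log2 fold changes, knockdown minus overexpression, by edgeR over all 12 libraries, where 42.9% of all genes tested differed. Most list genes were named for a call in either arm, which favours such a difference, so the 45 cannot be set against that share. With a replicate block AGO1 missed the threshold (adjusted p = 0.0601). The lines and the direction of the ZNF165 change differ together, so their parts cannot be told apart. Among the members the differences were TNRC6A -5.14 (adjusted p = 0.000488), TNRC6B -3.35 (adjusted p = 0.00254), AGO1 -1.68 (adjusted p = 0.0433), AGO2 -1.27 (adjusted p = 0.0361), AGO3 -1.81 (adjusted p = 0.0247), AGO4 -3.78 (adjusted p = 0.000922), DICER1 -6.01 (adjusted p = 0.000299) and DROSHA -2.44 (adjusted p = 0.00119). Microprocessor and export partners gave KHSRP 1.55 (adjusted p = 0.0159), DDX17 -4.76 (adjusted p = 0.000321), NCBP1 -4.21 (adjusted p = 0.00106), NCBP2 -2.13 (adjusted p = 0.00281), XPO5 -1.32 (adjusted p = 0.0309) and DDX5 -2.44 (adjusted p = 0.0284). Dicing and loading partners gave TARBP2 3.98 (adjusted p = 0.00107), CLP1 2.00 (adjusted p = 0.0191), HSP90AA1 -4.42 (adjusted p = 0.00197), TSNAX -3.09 (adjusted p = 0.0116) and ADAR -1.60 (adjusted p = 0.0115), with TARBP2 and DICER1 on opposite sides. All 4 named tailing and decay enzymes were negative: TUT7 -5.30 (adjusted p = 0.00135), TUT4 -4.78 (adjusted p = 0.000483), TENT2 -3.30 (adjusted p = 0.00313) and PNPT1 -3.08 (adjusted p = 0.0103). Deadenylase genes gave BTG1 2.16 (adjusted p = 0.00699), PAN3 -4.23 (adjusted p = 0.000457), CNOT6 -4.15 (adjusted p = 0.000952), CNOT1 -3.49 (adjusted p = 0.000519) and PAN2 -3.31 (adjusted p = 0.000455). Decapping, repression and P-body genes gave AJUBA 2.80 (adjusted p = 0.00242), FXR2 2.16 (adjusted p = 0.00634), EIF4E2 1.86 (adjusted p = 0.00472), XRN1 -4.88 (adjusted p = 0.00113), FXR1 -3.95 (adjusted p = 0.000594), LIMD1 -2.11 (adjusted p = 0.00591) and FMR1 -2.89 (adjusted p = 0.00113). The PIWI pathway gene named gave PLD6 2.08 (adjusted p = 0.00561). Host transcripts gave MIRLET7BHG 2.74 (adjusted p = 0.0121), MCM7 2.32 (adjusted p = 0.00556), MIR205HG -8.41 (adjusted p = 0.000455), MIR23AHG -2.32 (adjusted p = 0.0136) and MIR34AHG -2.43 (adjusted p = 0.0183). The MIR205HG value is fitted against 0 counts in all 3 knockdown libraries, depends on the prior count and is no bound. Target transcripts gave CDC25A 1.43 (adjusted p = 0.0463), MET -4.44 (adjusted p = 0.000879), CDK6 -4.35 (adjusted p = 0.000345) and NOTCH1 -3.46 (adjusted p = 0.000399).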

How the results depend on the processing

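Genes past the threshold in the knockdown numbered 6092, between 2642 (without MKN28 control replicate 1) and 10378 (without knockdown replicate 1) when 1 library was left out, and 3352 with knockdown replicate 1 alone. Members called lower were 7 (4 to 8 when 1 library was left out, 4 with replicate 1 alone, 2 with the length and GC trend removed, 2 with the trend removed and the replicate block). Members called higher were 0, against 2 with the trend removed and 3 with the trend removed and the block. With the trend removed, values turned to 0.058 for AGO1, 1.09 for AGO2, 1.70 for AGO3, 0.030 for NCBP2, 0.35 for FMR1 and 0.19 for DDX6. With the trend removed and the block they were 0.056 for AGO1, 1.05 for AGO2, 1.59 for AGO3, 0.27 for FMR1 and 0.15 for DDX6. With library totals alone, DGCR8 was at -0.055 and PRKRA at -0.058. The median of all genes was -0.92 with library totals and -0.20 with TMM, and 25.1% and 47.0% of calls were higher (57.5% with the trend removed).

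In the overexpression, 179 genes passed, 1 (without overexpression replicate 1 or 2) to 1338 (without MKN45 control replicate 2) when 1 library was left out, 1834 by DESeq2, 1249 with the trend removed, 722 with no filter, 3 with the spread of all 12 libraries, 8 with the replicate block, and 53 with the block and the trend removed. Members called higher were 0, with 0 to 2 when 1 library was left out, 3 by DESeq2, 2 with the trend removed and 2 with no filter. With the trend removed TNRC6B was at -0.24, AGO2 at -0.28 and AGO3 at -0.69, and with the block added at -0.34, -0.28 and -0.69. Leaving out 1 library gave AGO1 -0.51 to 0.11 and AGO3 -0.043 to 0.47. Of the calls, 82.7% were higher, 56.6% by DESeq2, 49.4% with the trend removed, 67.2% with no filter, 62.5% with the block and 100% with the spread of all 12.

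For the difference, members lower were 8 (5 to 8 when 1 library was left out, 3 with the trend removed, 3 with the block added) and higher 0 (2 and 2). AGO1, AGO2 and AGO3 turned to 0.72, 1.24 and 2.17 with the trend removed, and to 0.88, 1.20 and 2.08 with the block added. DGCR8 was at -0.89 with library totals, -0.020 with no filter and -0.21 to 0.44 when 1 library was left out. With the replicate block alone, AGO1 missed the threshold (adjusted p = 0.0601). Of the calls, 46.3% were higher, 25.1% with library totals and 56.6% with the trend removed. Between the lines' controls, members lower were 5 (2 to 6 when 1 library was left out, 3 with upper quartile scaling). AGO4, at -0.02, was at 0.014 by DESeq2, 0.078 with the trend removed, 0.00104 with no filter, 2.52e-06 with the spread of all 12, 0.13 with upper quartile scaling and -0.29 to 0.21 when 1 library was left out.

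The cause of these shifts was not tested. The number of all genes called also changed from fit to fit, so counts of members called cannot be compared directly between fits. Same-numbered libraries correlated at 0.291, 0.431 and -0.357 in MKN28 and -0.0553, -0.0547 and 0.0867 in MKN45, so they share only a number there. TNRC6C stayed at -6.20 to -4.17 in the knockdown and -0.15 to 0.25 in the overexpression over all alternatives. Its 7 knockdown counts limit the precision of its fold change.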
